A study of Mus musculus with 9 samples.

Results

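The comparison described here set the hearts of mice that carried a constitutively active mutant of a membrane transport protein as a transgene (K-line) against the hearts of mice that carried the wild-type form of the same protein as a transgene (N-line). Its members were chosen by the labels alone: every array labelled K-line transgenic and every array labelled N-line transgenic, which gave 6 of the 9 arrays of the series, 3 in each line. The remaining 3 arrays, labelled control, entered the normalization and the estimate of the spread and are given beside a result where they bear on it. All 9 arrays carried RNA from the heart of FVB mice aged 14 days that the labels call male, read on bead arrays (Illumina Mouse-6 v1.1). K-line and N-line therefore share the strain, the age, the tissue and the presence of a transgene, and differ by label in the form of the protein. The promoter that drives the transgenes, the number of founder lines and the genotype of the controls beyond that word are not given in the sources used here. The labels number the arrays of a group without tying each array to a separate animal. A p-value here therefore covers only the spread between these samples, and that spread may be technical. The level of the transgene itself is not reported here.

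Heart muscle cells keep their internal sodium, calcium and acidity within narrow limits with transport proteins in the cell membrane, and a transporter that stays active shifts that balance. A heart under lasting load enlarges its muscle cells, switches back on genes of the fetal ventricle such as the slow myosin heavy chain, and lays down matrix. Macrophages live in the heart muscle from before birth, and more of them enter, mature and clear debris when the muscle is injured.

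Several measured facts stand beside every value below. The K-line arrays lie on 1 slide and the N-line and control arrays on another, while N-line and control share a slide. The K-line arrays also went against their labelled sex, so that line, slide and apparent sex cannot be told apart in any K-line minus N-line value. Xist, the RNA that silences an X chromosome in female cells, read 10.59, 11.13 and 10.47 on the K-line arrays (log2 intensity) and 5.01, 5.10 and 4.94 on the N-line arrays, where it was below background, at least 49.6-fold lower. The Y-linked genes Kdm5d, Ddx3y and Eif2s3y were not above background on any K-line array but were detected on all 3 N-line arrays. The tested probes of 2 other Y-linked genes, Rbmy (-0.28) and Zfy2 (0.02), showed no call. Rbmy was detected on all 3 arrays of each line, and Zfy2 on 2 K-line arrays and 1 N-line array. The arrays were alike in the share of probes detected, 38.4% to 40.8% of 46657 on each. They correlated across probes at 0.988 to 0.993 within K-line, 0.992 to 0.993 within N-line and 0.969 to 0.981 between the lines. Across slides K-line and control correlated at 0.970 to 0.979, and on the shared slide N-line and control at 0.989 to 0.993.

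Between the lines, 4774 of 19692 tested probes passed limma's test at an adjusted p under 0.05, which is a background of 24.2%. Of these, 2377 (12.1%) were higher in K-line and 2397 (12.2%) were lower. Of the probes that passed, 2023 differed by at least 1.5-fold and 551 by at least 2-fold, and for 39.5% of the tested probes the K-line and N-line arrays did not overlap. Without N-line 2 the number that passed was 3044. The split by direction depends on the scaling of the arrays. With median scaling in place of quantile normalization the median of all probes was 0.12 on the log2 scale, and 76.6% of the changed probes were higher in K-line. With the authors' own value table the median was 0.23 and the share 85.9%, against 49.8% here. Differences below are relative to the quantile normalized median of -0.01. Without the probes named on chromosome X or Y, 4732 of 19520 probes passed. On the shared slide N-line differed from control at 183 probes (0.929%), and K-line, across slides, differed from control at 4795 (24.3%).

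**Figure D1:**
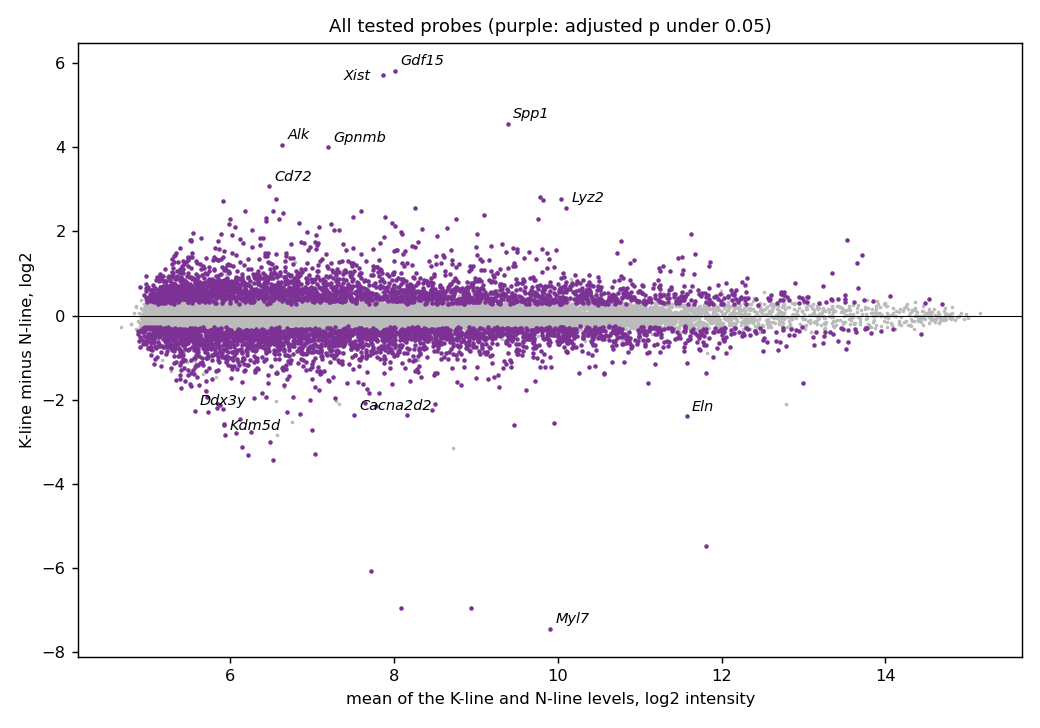
Each point is a tested probe, placed by the mean of its K-line and N-line levels (log2 intensity, horizontal axis) and by K-line minus N-line on the log2 scale (vertical axis), with purple points for an adjusted p under 0.05. The named points show Gdf15 at 5.82, Spp1 at 4.56, Alk at 4.05 and Gpnmb at 4.0 above the cloud and Myl7 at -7.44 below it.

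Among genes with a name, 4619 were measured, of which 656 (14.2%) were higher in K-line and 499 (10.8%) lower by their brightest probe, with a median of 0.02. Every count of list members called between the lines is to be read beside these shares. The calls named below were rerun under 19 alternatives, 9 of which left out an array. Probes on chromosome X or Y are absent from the alternative that removed them. Of the 138 named probes that passed, 96 passed under every alternative in which they were tested, none reversed, and an exception is stated where such a gene is named.

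Among the largest rises were 2 secreted proteins of stress and injury, Gdf15 and osteopontin. Gdf15, a circulating hormone made by stressed cells that reduces appetite, read 9.60, 11.61 and 11.57 on K-line arrays 3, 5 and 6 and 4.93, 5.18 and 5.22 on N-line arrays 2, 3 and 4, of which 2 detected it. The groups were far apart, with the lowest K-line array more than 4 log2 units above the highest N-line array, and the difference was 5.82 (SE 0.42, n = 3 per line, adjusted p 8.34e-06 by limma with Benjamini-Hochberg adjustment), or 6.48 without K-line 3. The control arrays lay between the lines at 7.04, 7.10 and 6.81, and the fall of Gdf15 in N-line against control did not pass the test (-1.87, adjusted p 0.0704). Spp1, which encodes osteopontin, a secreted protein that binds integrins on macrophages and fibroblasts, read 11.44, 11.63 and 11.94 in K-line and 6.50, 7.69 and 7.13 in N-line. All K-line arrays were above all N-line arrays, by 4.56 in the mean (SE 0.24, adjusted p 1.17e-06), a 23.6-fold difference. Spp1 was below background on all 3 control arrays (4.64 to 4.79), and N-line itself was 2.40 above control on the shared slide (adjusted p 0.00161), so the 3 groups are ordered control, N-line, K-line with no overlap between neighbours.

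Gpnmb, a membrane glycoprotein of lysosome-rich macrophages, read 9.04, 9.31 and 9.25 in K-line and 5.34, 5.11 and 5.15 in N-line. It was higher by 4.0 (SE 0.12, adjusted p 1.24e-08), a 16-fold difference, with little spread in either line. Alk, a receptor tyrosine kinase best known from developing nerve cells, was at 8.87, 8.67 and 8.46 in K-line and below background on every N-line and control array. Its difference was 4.05 (SE 0.11, adjusted p 6.15e-09), at least 11.9-fold. In bulk heart RNA, more cells of a type and more RNA per cell cannot be told apart, which holds for these genes and for every cell marker below.

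The start regions of Spp1 and Gpnmb are shown because both genes are made by activated macrophages and led the rises; they were chosen after their values and matches were seen. Capitals mark letter matches to a PU.1 motif (GAGGAAGT, the factor of macrophage development), an AP-1 motif (TGANTCA, bound by Fos and Jun proteins) and the steroid receptor half-site pair (ACANNNTGT). They are RefSeq sequences of GRCm38.p6, from 250 bases before to 50 after the annotated start, both on the plus strand, and the Spp1 window at chr5:104434861-104435160 is the first of 2 listed while that of Gpnmb is chr6:49036268-49036567.
Spp1: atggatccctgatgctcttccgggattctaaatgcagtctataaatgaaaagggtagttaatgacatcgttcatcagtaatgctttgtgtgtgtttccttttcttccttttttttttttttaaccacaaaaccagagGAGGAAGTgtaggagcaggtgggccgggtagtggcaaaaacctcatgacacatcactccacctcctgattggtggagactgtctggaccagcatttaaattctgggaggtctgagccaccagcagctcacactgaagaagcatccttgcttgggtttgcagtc
Gpnmb: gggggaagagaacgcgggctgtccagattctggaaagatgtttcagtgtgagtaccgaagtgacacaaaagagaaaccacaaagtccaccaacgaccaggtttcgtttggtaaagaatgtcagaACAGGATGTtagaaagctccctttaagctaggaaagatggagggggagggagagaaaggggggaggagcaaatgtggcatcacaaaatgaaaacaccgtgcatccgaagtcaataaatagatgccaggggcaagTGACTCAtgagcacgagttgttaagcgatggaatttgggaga
In the Spp1 window GAGGAAGT stands at positions 138 to 145. The Gpnmb window holds TGANTCA at positions 259 to 265 and ACANNNTGT at 125 to 133, and none of these matches overlaps another. Searched on both strands, GAGGAAGT occurs in 3.28% of the 27025 promoter windows of that table, TGANTCA in 7.93% and ACANNNTGT in 6.9%. A match describes letters and is not evidence of binding.

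Macrophage genes were higher in K-line throughout the measured part of the list. Of 13 macrophage and monocyte markers named on the array, 11 passed the detection filter (Itgam and Msr1 did not), and all 11 rose and 0 fell, beside the 14.2% of named genes that rose. Their median was 1.60, against 0.02 over all named genes, and the count remained 11 with any single array left out. A gene detected on fewer than 3 arrays outside the higher line could pass the filter only through that line, which favours a difference. That held for Lyz1 and Ptprc here, and all 9 other members rose (median 1.60). Lyz2, the lysozyme of macrophages, read 10.63, 11.96 and 11.55 in K-line and 8.72, 8.96 and 8.78 in N-line, and was higher by 2.56 (SE 0.26, adjusted p 9.33e-05). Its K-line arrays varied among themselves, with K-line 3 the lowest, but all stood above the N-line arrays. Cd68, a lysosomal glycoprotein of macrophages, was higher by 2.1 (SE 0.18, adjusted p 2.77e-05), though only 1 of 3 N-line arrays detected it. Cd74, the chaperone of class II antigen presentation, was higher by 1.93 and the inhibitory Fc receptor Fcgr2b by 1.71. Lyz1, a paralog of Lyz2 that the probe may not tell apart from it, was higher by 1.91, a call that ended when no filter on dim probes was used (adjusted p 0.0621). The remaining 6 members rose by 0.97 to 1.60. Added over the 11 members, the linear intensity was 6522 to 10072 on the K-line arrays, 2304 to 2351 on the N-line arrays and 2119 to 2259 on the control arrays. The part of macrophage RNA in the other rises was not tested.

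Genes of activated, lipid- and debris-handling macrophages were raised in part. The list had 9 measured genes, of which 6 rose and 0 fell (median 1.79), but Cd72, Mmp12 and Il7r passed the filter only through K-line, and of the 6 others 3 rose (median 0.62). Besides Gpnmb these were Cd72 (3.08, at least 7.56-fold), an inhibitory receptor of B cells that macrophages also carry, Mmp12 (2.18, at least 3.95-fold), the elastase of macrophages, Clec7a (1.99), a receptor for fungal glucans, Il7r (1.78, at least 2.49-fold), the interleukin 7 receptor, and Cd63 (0.89), a protein of late endosomes. Cd72 read 7.69, 8.19 and 8.17 in K-line and was below background on every N-line array (4.81 to 5.05), so the lines did not come near each other. The 2 brightest members that did not pass were Apoe (0.36, adjusted p 0.066) and Lpl (-0.02). Of the other leukocyte lists, 1 of 3 T and B cell markers rose, which was Il7r again, while Cd3e of the T cell receptor complex was at 0.28 and did not pass. Among 3 neutrophil and mast cell markers Csf3r, the granulocyte growth factor receptor, rose (0.57), having passed the filter only through K-line. Its call ended without N-line 4 (0.53, adjusted p 0.0506), and the neutrophil gene S100a9 was at 0.40 and did not pass. The survival genes Bcl2a1d (2.55), Bcl2a1a (2.49) and Bcl2a1b (2.28), relatives of Bcl2 found mainly in blood cells, also rose, but they are near-identical copies and their probes may not tell them apart. Bcl2a1a was also 0.83 above control in N-line on the shared slide (adjusted p 0.0285), with 5.48 to 5.61 in control, 6.07 to 6.53 in N-line and 8.56 to 9.04 in K-line.

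Signals that draw leukocytes were raised in part. Of 10 measured cytokines and chemokines, 4 rose and 2 fell (median 0.30, beside 14.2% and 10.8% of named genes), and between 3 and 5 rose with an array left out (3 without K-line 6, N-line 2 or N-line 4). Cxcl14 and Cxcl9 passed the filter only through the higher line, and of the 8 others 3 rose and 2 fell (median 0.30). Ccl2, which attracts monocytes, read 7.43, 7.48 and 7.04 in K-line against 5.38, 5.56 and 5.52 in N-line, higher by 1.83 (SE 0.16, adjusted p 3.54e-05). Cxcl16, a chemokine that also acts as a scavenger receptor, was higher by 1.2, and Cxcl14 by 0.94, at least 1.48-fold above an N-line signal below background, so that it passed the filter only through K-line. Tgfb3, a growth factor of matrix formation, fell by 0.42, which was not called with median scaling or with the authors' value table (highest adjusted p 0.274). Of 19 lysosomal and proton pump genes 7 rose and 0 fell, with a median of 0.32, led by Cd68, Atp6v0c of the proton pump (0.91), Cd63 and the protease Ctsz (0.66). Dpep2, a dipeptidase that cleaves leukotrienes, was among the largest named rises (2.3, at least 4.13-fold). It was below background on every N-line and control array, so it passed the filter only through K-line.

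**Figure D2:**
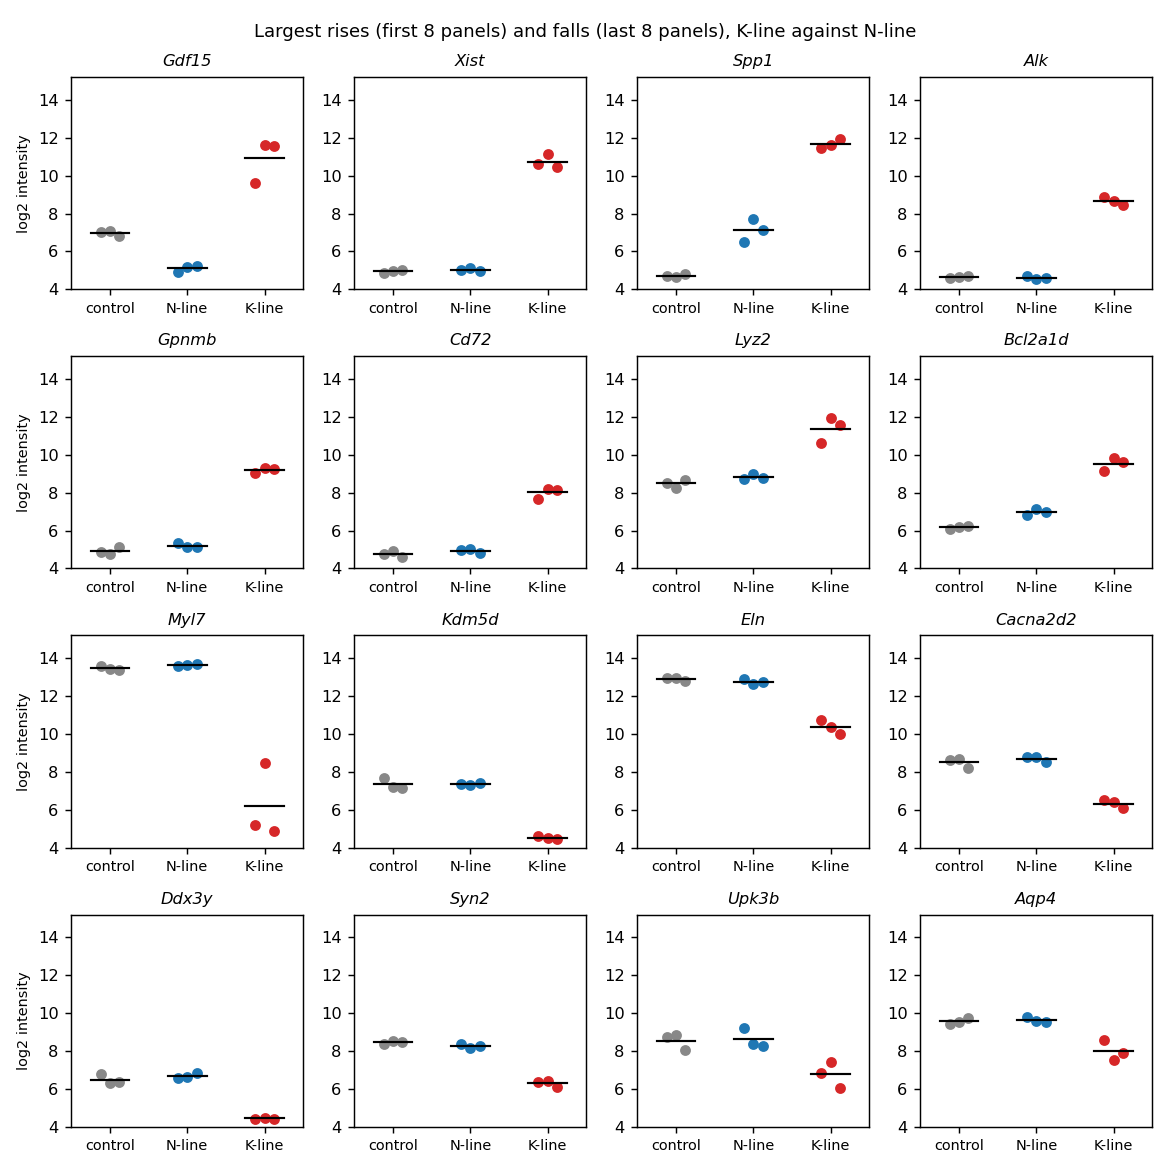
Log2 intensity on each array (points) and group means (bars) for the 8 largest named rises (upper 8 panels) and the 8 largest named falls (lower 8 panels), by group. In every panel the red K-line points lie clear of the blue N-line points, and the grey control points of Gdf15 lie between the lines, while those of Spp1 and Bcl2a1d lie below N-line.

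Matricellular proteins, which sit in the matrix and signal to cells, rose in most cases, beside structural matrix genes with calls in both directions. Of 6 measured members of the osteopontin and matricellular list 5 rose and 0 fell, beside the 14.2% of named genes that rose. The median was 1.15, and 5 rose with any single array left out. Thbs1 passed the filter only through K-line, and 4 of the other 5 rose (median 1.06). Thbs1, thrombospondin 1, which activates TGF-beta, was at 6.17, 6.59 and 5.76 in K-line and below background in N-line, higher by 1.36 (SE 0.17, adjusted p 3.77e-04), at least 2.1-fold. Ccn1, a secreted ligand of integrins, was higher by 1.25 (SE 0.17, adjusted p 5.97e-04), Postn, which fibroblasts secrete after injury, by 1.06 (SE 0.20, adjusted p 0.00335), and the proteoglycan Vcan by 0.77 (SE 0.13, adjusted p 0.00218). The other, dimmer probe of Vcan was at 0.43 and did not pass, and neither did Thbs2 (-0.18). Of 19 collagens, elastin and matrix enzymes 5 rose and 3 fell, beside 14.2% and 10.8% of named genes, with a median of 0.12. Mmp12 passed the filter only through K-line, and of the 18 others 4 rose and 3 fell (median 0.12). The rises included the short-chain collagen Col8a1 (1.36) and the aggrecan-cutting protease Adamts4 (1.25), while the bright fibroblast genes Dcn (0.00) and Mgp (0.17) did not pass.

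Elastin, the protein of elastic fibres in arteries, valves and atria, had the largest named fall after Myl7 and the Y-linked Kdm5d. Eln read 10.76, 10.36 and 10.01 in K-line and 12.92, 12.66 and 12.73 in N-line, lower in every K-line array, with a difference of -2.40 (SE 0.16, adjusted p 6.21e-06), 5.26-fold. N-line and control did not separate (-0.12, adjusted p 0.866). Fbln1, an elastic fibre protein, fell by 0.77 on its brightest probe and was at -0.15 on its other probe, which did not pass, so its probes disagree.

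Of the muscle genes, the slow myosin heavy chain rose while the fast chain did not pass the test. Myh7 read 12.66, 12.34 and 12.75 in K-line and 10.70, 10.70 and 10.57 in N-line. It was higher on every K-line array, by 1.93 (SE 0.13, adjusted p 6.79e-06), 3.80-fold, while N-line did not differ from control by the test (-0.15, adjusted p 0.744). Myh6, the fast heavy chain of the adult mouse ventricle, was at 0.05 (adjusted p 0.78). Of 5 measured hypertrophy and fetal gene markers 2 rose and 1 fell, with a median of 0.43. Xirp2, an actin-binding protein of the intercalated disc, read 7.78, 10.06 and 8.46 in K-line and 7.26, 6.99 and 7.45 in N-line, with 1 K-line array far above the other two. Its difference of 1.54 (adjusted p 0.024) was not called without N-line 2 (1.55, adjusted p 0.0617) or without N-line 3 (1.41, adjusted p 0.0655), with no filter (adjusted p 0.0987) or with trend and robust moderation (adjusted p 0.0776), and it was 0.89 without K-line 5. Acta2, the smooth muscle actin, fell by 0.71 (SE 0.10, adjusted p 5.37e-04), and the cardiac transcription factor Gata4 was at 0.43 (adjusted p 0.058) and did not pass. In the list of calcineurin, CaMKII and hypertrophic transcription factors 3 of 11 rose and 0 fell, but the count was 0 without N-line 2 and 0 without N-line 4, and the median was 0.04.

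The largest fall of all was that of an atrial gene. Myl7, the light chain of atrial myosin, read 5.22, 8.44 and 4.90 in K-line, detected on 2 of the 3 arrays, and 13.57, 13.65 and 13.68 in N-line. The difference was -7.44 (SE 0.69, adjusted p 4.58e-05), with no exact fold since 1 K-line array was not above background. It was -8.57 without K-line 5 and -6.80 without K-line 6, and the 3 control arrays (13.38 to 13.57) were at the N-line level. Gja5, the connexin of atria and the conduction system, read 8.38, 8.28 and 8.55 in K-line and 10.06, 9.91 and 9.75 in N-line (-1.5, SE 0.13, adjusted p 3.05e-05). On the shared slide N-line was 0.78 above control for Gja5 (adjusted p 0.0213), and the controls at 8.97 to 9.38 lay between the lines. Of 5 measured atrial and conduction markers 4 fell and 0 rose, beside the 10.8% of named genes that fell, with a median of -1.03. The others were Cntn2, a cell adhesion protein of the conduction system (-1.03 on its brightest probe and 0.10 on its other probe), and Peg3 (-0.56 on its brightest probe and -0.06 on its other probe). Neither other probe passed, so the probes of both genes disagree. The call of Peg3 ended without K-line 6 (-0.39), N-line 2 (-0.48) or N-line 4 (-0.51), under both other scalings, with the 6 arrays normalized together and with no filter (highest adjusted p 0.166). The atrial factor Tbx5 did not pass (-0.26). Added over the list, the linear intensity was 1068 to 1452 on the K-line arrays, 14662 to 15281 on the N-line arrays and 12451 to 13998 on the control arrays. On the N-line and control arrays most of this sum is Myl7, so it does not describe the other members. Kcnj3 and Kcnj5, atrial potassium channels, did not pass the detection filter.

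Some markers of the heart's outer lining and of its nerves fell. Among 8 mesothelial and epicardial markers 3 fell and 1 rose, beside 10.8% and 14.2% of named genes, with a median of -0.51. Upk3b, a membrane protein of the mesothelium, read 6.83, 7.43 and 6.05 in K-line and 9.20, 8.36 and 8.29 in N-line (-1.85, SE 0.34, adjusted p 0.00341), with a wide spread in both lines and no overlap. The lubricating glycoprotein Prg4 fell by 1.53 and the plakin Ppl, above background on 1 of 3 K-line arrays, by 1.18, while Krt18, a keratin of simple epithelia, was higher by 0.75. Wt1 (-0.22) and Tbx18 (-0.04), transcription factors of the epicardium, did not pass. Of 10 nerve and Schwann cell markers on the array 7 did not pass the detection filter, and the 3 that did fell. Syn2 of synaptic vesicles was at -1.97 (SE 0.11, adjusted p 1.90e-06) and the growth cone protein Gap43 at -0.94. The X-linked Syn1, above background on 1 of 3 K-line arrays, was at -0.50. Their summed linear intensity was 168 to 202 on the K-line arrays, 482 to 532 on the N-line arrays and 492 to 553 on the control arrays. The summed mesothelial level was 1128 to 1337 in K-line, 1637 to 2037 in N-line and 1525 to 1811 in control. The part of atrial, lining and nerve tissue in the other falls, elastin included, was not tested.

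Lists of endothelial cells, fibroblasts, blood and fat had medians nearer 0. Their counts stand beside the 14.2% of named genes that rose and the 10.8% that fell. Of 6 endothelial markers 1 fell, with a median of -0.21, and that call of Egfl7, a secreted protein of vessels (-0.39), ended without control 2, K-line 5, K-line 6 or any N-line array, under both other scalings, in both runs of the 6 arrays and with no filter (highest adjusted p 0.164). The bright endothelial gene Cav1 was at -0.23 and did not pass. Of 11 fibroblast markers 2 rose and 3 fell, with a median of 0.00, Postn being the largest rise and Igfbp6, a binding protein of insulin-like growth factors, the largest fall (-0.87). Of 7 red blood cell markers the membrane skeleton genes Ank1 (-0.88) and Dmtn (-0.73) fell, while the globins Hba-a1 (-0.11) and Hbb-b2 (-0.21) did not pass. None of 5 adipocyte markers and none of 3 lung, liver and skeletal muscle markers passed. The ventricular factor Irx4 fell by 0.53, which was not called without K-line 5 (-0.42, adjusted p 0.0793) or K-line 6 (-0.50, adjusted p 0.0713), without N-line 3 (-0.44, adjusted p 0.0763) or N-line 4 (-0.51, adjusted p 0.0694), under the other scalings or with no filter (highest adjusted p 0.239).

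Genes of the heart's electrical activity had calls in both directions. Cacna2d2, an accessory subunit of calcium channels, read 6.52, 6.40 and 6.07 in K-line and 8.79, 8.77 and 8.54 in N-line (-2.37, SE 0.15, adjusted p 4.45e-06), 5.18-fold lower and with no overlap. Ryr2, the calcium release channel of the sarcoplasmic reticulum, fell by 0.72 (SE 0.13, adjusted p 0.00242), while its partner, the calcium pump Atp2a2, was at -0.21 and the sodium-calcium exchanger Slc8a1 at -0.06, neither passing. Of 13 genes of calcium entry, release and reuptake 1 rose and 3 fell, with a median of -0.19, beside 14.2% and 10.8% of named genes. With median scaling 2 fell and the median was -0.03, against 0.12 for all probes. The rise, that of the calcium pump Atp2b1 (0.48), was not called without control 1 or 3, K-line 5 or any N-line array, in both runs of the 6 arrays or with no filter (highest adjusted p 0.11, without N-line 2). Kcne1, a subunit of the slow delayed rectifier potassium channel, read 8.16, 7.39 and 7.68 in K-line and 5.91, 6.25 and 5.81 in N-line. It was higher by 1.75 (SE 0.20, adjusted p 2.02e-04), and its other probe by 1.71, while its channel partner Kcnq1 was at -0.28 and did not pass. Kcna5, an ultrarapid potassium channel, was higher by 1.11 (SE 0.13, adjusted p 2.44e-04), so that of 8 potassium channel and excitability genes 2 rose and 1, Gja5, fell. The list of transporters for sodium, protons and bicarbonate had 1 rise and 1 fall among 13 genes, and a median of -0.06 that turned to 0.08 with median scaling, where the median of all probes was 0.12. The sodium pump subunit Atp1b1 was at 0.15 and did not pass. Car3, a carbonic anhydrase of fat and muscle, had a large but uneven difference of -3.15 that did not pass (adjusted p 0.14).

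Many genes that respond to glucocorticoids were higher in K-line than in N-line, and some of these were also lower in N-line than in control. In K-line against N-line 8 of the 11 measured genes rose and 0 fell (median 0.65), beside 14.2% and 10.8% of named genes. The count of rises was 8 with any single array left out. The other 3 were lower in K-line and did not pass, among them Angptl4 (-0.45) and Hif3a (-0.06). In N-line against control 3 of the 11 fell and 0 rose (median -0.28), beside 0.929% of all tested probes that differed there in either direction. Zbtb16, a zinc finger repressor strongly induced by glucocorticoids, read 7.84, 8.89 and 8.33 in K-line, 6.04, 6.47 and 6.44 in N-line and 9.31, 9.39 and 9.21 in control. The lines differed by 2.04 (SE 0.22, adjusted p 1.23e-04), N-line was 2.99 below control (-2.99, adjusted p 1.28e-04), and K-line was at -0.95 against control, so that N-line was the lowest group and control the highest, with no overlap. Mt1, a metal-binding metallothionein, read 14.10, 14.46 and 14.70 in K-line, 13.00, 12.89 and 13.09 in N-line and 14.42, 14.23 and 14.08 in control. Its line difference was 1.43 (SE 0.15, adjusted p 1.01e-04), with -1.25 in N-line against control (adjusted p 0.00459) and 0.18 in K-line against control, whose arrays overlap. Cdkn1a, the cell cycle inhibitor p21, gave the same order of the lines on 2 probes, higher in K-line than N-line by 1.25 and 1.33, and at -1.54 in N-line against control on each. Cebpb, a transcription factor of inflammation (1.32), and Errfi1, an inhibitor of the EGF receptor (1.24), were higher in K-line, and in N-line against control they were at -0.45 (adjusted p 0.1) and -0.02, neither passing. These comparisons share the N-line or the control arrays, so their values are given side by side and are not independent.

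Further genes separated N-line from control on the shared slide as well as from K-line. Sphk1, which makes the lipid signal sphingosine 1-phosphate, read 8.07, 8.04 and 7.95 in K-line, 6.91, 6.72 and 6.55 in N-line and 7.57, 7.62 and 7.54 in control. N-line was the lowest group, with 1.30 between the lines (SE 0.10, adjusted p 1.77e-05) and -0.85 against control (adjusted p 0.00499). The scaffold protein gene Ppfia1 followed the same order on the dimmer of its probes (1.23 and -0.91). Its brighter probe was also called higher in K-line than in N-line, by 0.495. Myo5c, an unconventional myosin of secretory cells (-1.58 between the lines, 1.16 in N-line against control), and Nav3, a microtubule-binding protein (-0.68 and 0.89), were highest in N-line. Dhh, a hedgehog ligand of Schwann cells, was lower in N-line than control (-0.85) and lower again in K-line (-0.57 against N-line).

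**Figure D3:**
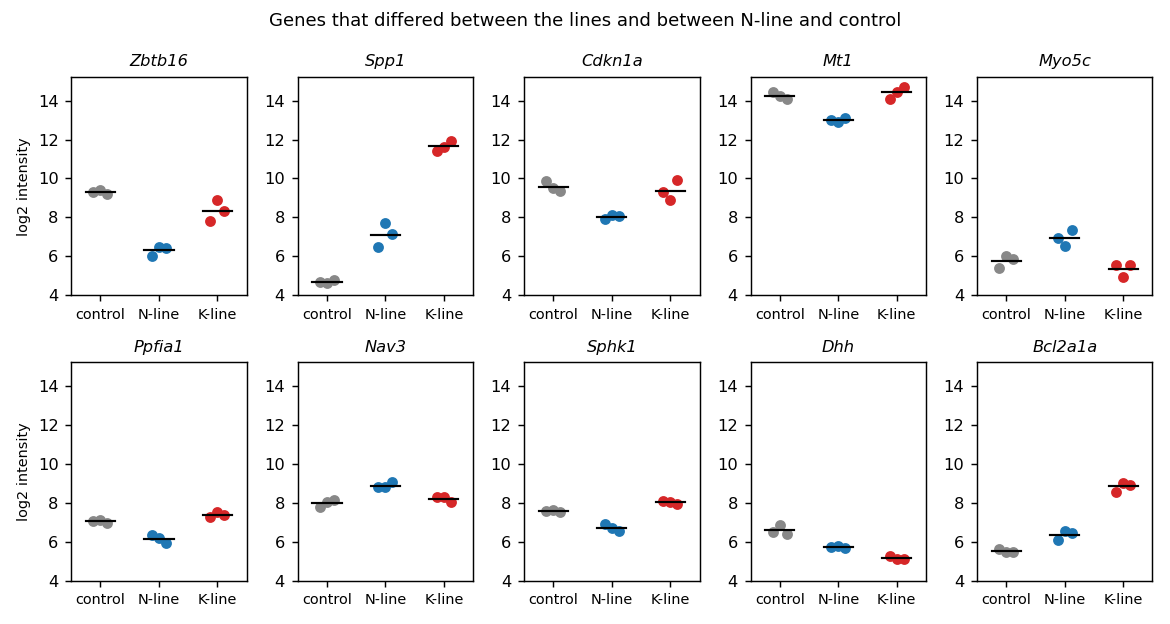
Log2 intensity on each array (points) and group means (bars) in control, N-line and K-line for 10 genes that passed between the lines and, on the shared slide, between N-line and control. For Zbtb16, Cdkn1a, Mt1, Ppfia1 and Sphk1 the blue N-line points lie below both other groups, for Myo5c and Nav3 above both, and Spp1 and Bcl2a1a climb from control through N-line to K-line.

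The start regions of Mt1 and Srxn1 are shown because Mt1 is the brightest of the named steroid-responsive genes and Srxn1 rose most in the oxidative stress list; they too were chosen after their matches were seen. Capitals mark ACANNNTGT in Mt1, and TGANTCA and the core of the antioxidant response element (TGACNNNGC, bound by the factor Nrf2) in Srxn1. Both are RefSeq windows of GRCm38.p6 on the plus strand, Mt1 at chr8:94178839-94179138 and Srxn1 at chr2:152105274-152105573.
Mt1: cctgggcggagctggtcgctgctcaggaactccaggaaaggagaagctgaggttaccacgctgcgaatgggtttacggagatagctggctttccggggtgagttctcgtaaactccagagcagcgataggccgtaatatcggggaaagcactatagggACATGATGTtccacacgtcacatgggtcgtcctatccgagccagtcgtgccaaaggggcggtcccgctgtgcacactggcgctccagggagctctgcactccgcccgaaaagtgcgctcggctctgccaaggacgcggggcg
Srxn1: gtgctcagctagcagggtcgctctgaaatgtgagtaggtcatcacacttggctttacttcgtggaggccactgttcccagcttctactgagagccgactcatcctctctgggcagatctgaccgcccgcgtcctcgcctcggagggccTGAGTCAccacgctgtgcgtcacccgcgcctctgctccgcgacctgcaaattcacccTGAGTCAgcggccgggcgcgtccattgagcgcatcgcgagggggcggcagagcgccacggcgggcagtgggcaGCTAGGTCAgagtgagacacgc
In Mt1 the steroid receptor letters stand at positions 159 to 167. Srxn1 holds TGANTCA at positions 149 to 155 and again at 206 to 212, and TGACNNNGC on the opposite strand at 279 to 287, with no overlap between them. TGACNNNGC occurs in 12.5% of all 27025 windows, so a match is common. Of 7 windows matched for the glucocorticoid-responsive genes that rose, 1 holds ACANNNTGT, which is that of Mt1, against 3.97% of the 3700 windows of all named tested genes.

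Stress defence genes rose in part, led by sulfiredoxin and p62. The list counts here stand beside the 14.2% of named genes that rose and the 10.8% that fell. Srxn1, sulfiredoxin, which repairs oxidised peroxiredoxins, read 9.14, 9.70 and 9.57 in K-line and 7.58, 7.70 and 7.45 in N-line on its brightest probe. It was higher by 1.90 (SE 0.16, adjusted p 2.37e-05), and another probe by 2.35, while the remaining probe, below background on all N-line arrays, was at least 5.04-fold higher. In the oxidative stress and glutathione list, which shares Mt1 with the steroid-responsive list, 6 of 11 rose and 1 fell (median 0.43), and 4 to 7 rose with an array left out (4 without K-line 5, K-line 6 or N-line 2). Examples were the peroxiredoxin Prdx6 (0.56 on its brightest probe and 0.02 on a dim one) and the superoxide dismutase Sod1 (0.43), while Prdx1 was at 0.14 and did not pass. Sqstm1, the autophagy receptor p62, read 12.07, 12.11 and 12.46 in K-line and 10.84, 10.89 and 10.76 in N-line, higher by 1.38 (SE 0.12, adjusted p 2.51e-05). Of 26 genes of ubiquitin, the proteasome and autophagy 10 rose and 1 fell (median 0.24), and 6 to 9 rose with an array left out (6 without N-line 2). Psmb5, the chymotrypsin-like subunit of the proteasome, rose by 0.65 (SE 0.10, adjusted p 0.00121), and the ubiquitin gene Ubb (0.20) did not pass.

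Other stress lists had fewer calls. In the heat shock list the chaperones Hsp90aa1 (0.84) and Hsp90ab1 (0.44) rose among the 4 of 9 that did (7 with median scaling), beside 14.2% of named genes, and the count was 2 with control 1, K-line 3, K-line 5, N-line 2 or N-line 4 left out. The heat shock factor Hsf1 fell by 0.27 (adjusted p 0.0416), a call that ended under 11 of the 19 alternatives. Apart from Gdf15, the integrated stress response and amino acid synthesis list held Sars, a transfer RNA synthetase (0.44), and Mthfd1l, a mitochondrial folate enzyme (0.48), among 3 rises in 6. Mthfd1l was not called without K-line 5, K-line 6, N-line 2 or N-line 4 or with no filter (highest adjusted p 0.0923). Among 9 immediate early genes, which respond within minutes to growth and stress signals, Egr2 read 7.95, 8.80 and 8.10 in K-line and 5.98, 6.62 and 6.16 in N-line, higher by 2.03 (SE 0.22, adjusted p 1.24e-04). Junb, a subunit of AP-1, was higher by 1.56 (SE 0.12, adjusted p 1.46e-05). The list as a whole had 3 rises and 1 fall and a median of 0.07, and the bright members Klf2 (-0.16) and Klf4 (-0.24) did not pass, although the other 2 probes of Klf4 were called higher (0.34, adjusted p 0.0326, and 0.58, adjusted p 0.00641), so its probes disagree.

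Genes of growth and survival were mixed, and their counts stand beside the 14.2% of all named genes that rose and the 10.8% that fell. Igf1, insulin-like growth factor 1, rose by 0.63 (SE 0.11, adjusted p 0.00226), and its binding proteins Igfbp6 (-0.87) and Igfbp5 (-0.62) fell, among 4 rises and 2 falls in 14 growth factor, adrenergic and angiotensin genes that also include Alk and Gdf15. Alk and Adra1b passed the filter only through the higher line, and of the 12 others 3 rose and 2 fell. Of 14 apoptosis and survival genes 6 rose and 1 fell, with a median of 0.22. Of the 6 rises 3 are the Bcl2a1 copies; besides these and Cdkn1a, they included Bcl2l1 (0.74, SE 0.12, adjusted p 0.00195), which opposes cell death, while Bcl2l2 was at -0.27 and did not pass. Of 15 cell cycle genes Cdkn1b, the inhibitor p27, which passed the filter only through K-line, was higher (0.82) and Cenpa, a histone of the centromere, lower (-0.67), and the median was 0.02. Of 9 interferon and class I genes 3 rose, and the count was 0 without K-line 6 or N-line 2.

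Energy metabolism differed by small amounts. Of 43 genes of oxidative phosphorylation and mitochondrial biogenesis 7 fell, beside 10.8% of named genes, and 0 rose, with a median of -0.09. The count of falls was 3 without N-line 4. With median scaling, where the median of all probes was 0.12, it was 2 and the median of the family 0.01, still below that of all probes. Ndufa10, a subunit of respiratory complex I, read 13.18, 13.18 and 13.01 in K-line and 13.69, 13.80 and 13.67 in N-line (-0.60, SE 0.09, adjusted p 0.00104). Cyc1, cytochrome c1 of complex III, fell by 0.47. In the tricarboxylic acid cycle 2 of 12 fell and 0 rose, with Pdhb, a subunit of pyruvate dehydrogenase, at -0.63 (SE 0.10, adjusted p 0.00138) and a median of -0.23. Acsl1, which activates fatty acids, fell by 0.69 (adjusted p 0.00624), whereas Rxra, a partner of fatty acid sensing nuclear receptors, rose by 0.64, among 1 rise and 2 falls in 12 fatty acid genes. Of 16 genes of glycolysis and glucose transport 5 rose and 0 fell, with a median of 0.09, led by Hk1, the hexokinase of fetal and stressed heart (0.73, SE 0.15, adjusted p 0.00634), and Pfkfb2, which sets the rate of glycolysis (0.57). Pfkfb2 was at -0.76 in N-line against control (adjusted p 0.0138). The count of rises was 3 without K-line 6 or N-line 2. Of 64 cytosolic ribosomal protein genes 7 rose (0 fell, median 0.10), a share below the 14.2% of named genes, and 1 rose without N-line 2. Rplp2 passed the filter only through K-line, and of the 63 others 6 rose.

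**Figure D4:**
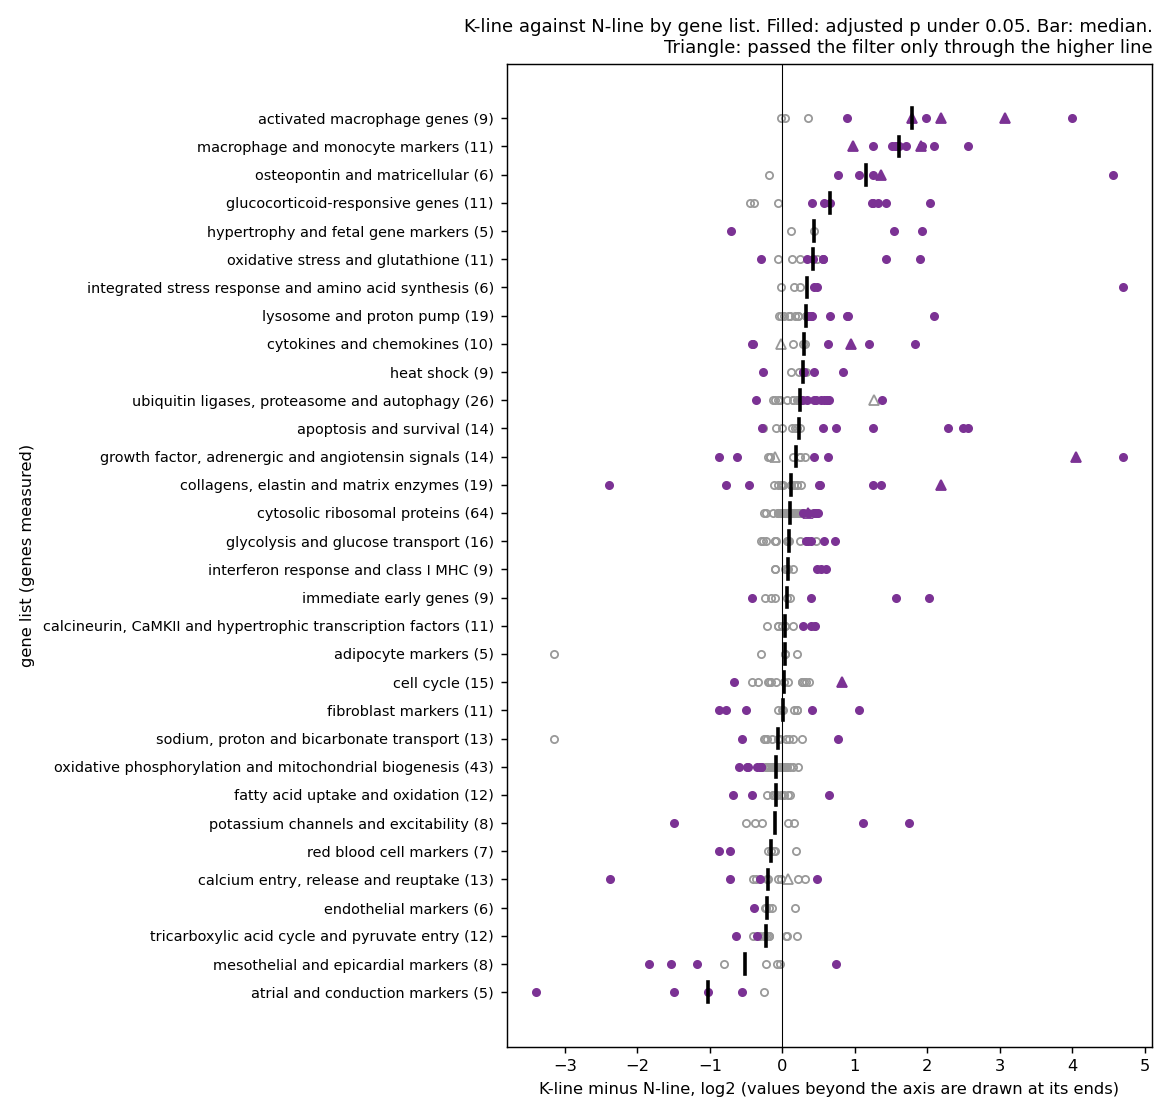
K-line minus N-line (log2, horizontal axis) for each measured gene of the lists with at least 5 genes, ordered by median, with filled points for an adjusted p under 0.05, open points for the rest, triangles for genes that passed the filter only through the higher line and a bar at the median. Macrophage markers (median 1.60) and matricellular genes (1.15) lie to the right and atrial markers (-1.03) to the left, the median of the activated macrophage genes (1.79) is itself a triangle, and the median of all named genes is 0.02.

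Of the remaining large falls, several lie outside the lists. Aqp4, a water channel, read 8.58, 7.51 and 7.89 in K-line and 9.82, 9.56 and 9.53 in N-line (-1.64, SE 0.22, adjusted p 4.81e-04). Whrn, a scaffold protein known from hair cells of the ear, fell by 1.57 (SE 0.19, adjusted p 2.66e-04), with 7.82, 6.98 and 7.44 against 9.24, 8.86 and 8.84. On neither gene did N-line differ from control by the test (0.07 and -0.01). Xpnpep2, an X-linked membrane peptidase, fell by 1.5, with 1 of 3 K-line arrays above background, and Zfp579, a zinc finger protein, fell by 1.38.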

How the data were processed

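Heart RNA was hybridised to 9 arrays, 3 in each of 3 groups. The deposited raw values are mean bead intensities, which the authors wrote with BeadStudio 2.3.47 and left unnormalized, per the file headers. Beside them stands a deposited detection score, a fraction that rises with brightness, and 1 minus it was used as detection p-value. The authors' value table holds background-subtracted intensity of unstated normalization and was an alternative only. Raw intensities were corrected with normexp from the detection p-values (offset 16), quantile normalized over all 9 arrays and put on the log2 scale in limma 3.58.1 (R 4.3.3). Probes with a detection p under 0.05 on at least 3 arrays were tested, 19692 in all, in 1 model of 3 group means (lmFit, eBayes), with two-sided p-values adjusted by Benjamini-Hochberg over all of them. The offset makes differences of dim probes too small.

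The arrays carry probe codes and no symbols. In 1 class of codes 9796 of 11857 numbers (82.6%) are mouse NCBI gene numbers in RefSeq's GRCm38.p6 gene table, and reading them as genes was inferred from that. Names were found for 5215 tested probes (26.5%) of 4619 genes, and lists are therefore measured only in part. A list takes the brightest probe of a gene. List values without the members that passed the filter only through the higher line were added after the data were seen. Named were the 14 largest rises and 14 largest falls (adjusted p under 0.05, no overlap, every array of the brighter line detected), up to 5 passing members and the 2 brightest non-passing members of each list, and up to 10 genes that also passed in N-line against control. Car3 was named after its value was seen. Some genes that the rule picks are not reported here. A fold given as "at least" sets the mean of the brighter line against the dim line, with each dim array raised to the lowest detected signal where it lay below that. The members and lists were chosen with earlier results of these data known, and no list test was run. The fit was tested on simulated data. Precision is limited by the 3 arrays per group.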

Additional observations from a re-analysis of the deposited data

How the results depend on the processing

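The number of probes that differed between the lines was 4774, and over the alternatives that kept all K-line and N-line arrays in the comparison, and did not leave out a single control array, it lay between 3793 (the 6 arrays of the lines normalized together, 1977 higher and 1816 lower, 52.1% higher) and 6844 (the authors' value table, 5879 higher and 965 lower, 85.9% higher). With median scaling 4483 differed, 3434 higher and 1049 lower (76.6% higher), and with only the 6 arrays in the model 3825 (51.9% higher). No background correction, an offset of 50, no filter, a stricter filter, a trend with robust moderation and removal of X and Y probes gave 4249 to 5049. With 1 array left out the count was 3044 (without N-line 2) to 4780 (without K-line 3), with 1558 to 2389 higher and 1486 to 2391 lower; 1595 were lower without N-line 4. The cause of these shifts was not tested. Of 138 named probes that passed, 96 passed under every alternative in which they were tested and 99 with each array left out, and 0 reversed. No paired analysis was possible because the K-line arrays are numbered 3, 5 and 6 and the N-line arrays 2, 3 and 4, so that they share only 1 number. Signal over background limits the dimmest probes: of the tested probes, split by brightness into 4 equal parts, 16% of the dimmest part passed, against 25.7% to 29.3% of the other 3.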
